A study of Mus musculus with 192 samples.

Results

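The genes described here were 8 genes of the B cell receptor and of B cell identity, namely Cd79a, Cd79b, Ms4a1, Cd22, Blk, Pax5, Ebf1 and Pou2af1. They were taken from a list of 50000 accessible windows of 500 bp each, of which 55 overlapped the gene body of a member or the 50 kb on either side of it. The list came from Pi-ATAC, in which index sorting of protein-stained cells is joined to transposase profiling of open chromatin in the same cell. The cells were 4T1, a mouse breast cancer cell line stained for EpCAM, and splenocytes stained for CD45 that came from the spleen of an MMTV-PyMT transgenic mouse carrying no tumour when it was taken. The MMTV promoter drives the PyMT oncogene in mammary epithelium, and both groups were mixed, fixed and transposed in bulk before sorting. Titles place 96 cells in each group, whereas source names give 95 and 97. Window names were read as calls on all cells together, a reading that the methods do not settle. The list was therefore 1 pooled sample with no replicate, no score per window and no contrast between the groups, and whether a window was open in splenocytes, in 4T1 cells or in both cannot be told apart. Fewer B cells and less open chromatin per B cell cannot be told apart either, and read depth was not analysed here.

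On B cells, the antigen receptor is a membrane immunoglobulin that signals through a dimer of the proteins made by Cd79a and Cd79b, whose tails are phosphorylated by Src family kinases such as Blk. Cd22 encodes a sialic acid binding receptor that dampens this signal, and Ms4a1 encodes CD20, a surface protein of mature B cells. Ebf1 and Pax5 are transcription factors that set up and hold B cell identity, and Pou2af1 encodes OCA-B, a coactivator that B cells use with octamer-binding factors.

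A window lay within 1 kb of a transcript start, here called a promoter window, at 3 of the 8 members (Cd79a, Ebf1 and Pou2af1), beside 48.1% of all 22350 protein-coding genes. The other 5 members (Cd79b, Ms4a1, Cd22, Blk and Pax5) had none. The promoter window of Cd79a was centred 47 bp upstream of its start, that of Ebf1 195 bp upstream of the nearest of its 5 annotated starts, and that of Pou2af1 210 bp downstream in intron 1. A stretch of 300 bases of each is shown because these are the members' only promoter windows. Stretches run 5′ to 3′ on the strand of the gene, all 3 on the plus strand of mm9, and capitals mark the consensus words described further on, with words that overlap written as a single run.
Cd79a promoter, chr7:25682130-25682429, plus strand: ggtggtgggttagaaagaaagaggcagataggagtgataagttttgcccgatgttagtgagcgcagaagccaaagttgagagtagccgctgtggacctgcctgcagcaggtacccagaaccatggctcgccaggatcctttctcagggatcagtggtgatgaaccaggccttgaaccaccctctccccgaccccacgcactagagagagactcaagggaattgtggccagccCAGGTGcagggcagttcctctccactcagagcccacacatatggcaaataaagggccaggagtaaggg
Ebf1 promoter, chr11:44430474-44430773, plus strand: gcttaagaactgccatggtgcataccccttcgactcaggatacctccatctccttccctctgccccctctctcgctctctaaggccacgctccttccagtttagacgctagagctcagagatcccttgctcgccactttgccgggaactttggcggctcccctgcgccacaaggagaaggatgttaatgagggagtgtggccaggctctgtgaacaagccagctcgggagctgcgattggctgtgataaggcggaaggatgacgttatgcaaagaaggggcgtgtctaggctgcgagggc
Pou2af1 promoter, chr9:51021861-51022160, plus strand: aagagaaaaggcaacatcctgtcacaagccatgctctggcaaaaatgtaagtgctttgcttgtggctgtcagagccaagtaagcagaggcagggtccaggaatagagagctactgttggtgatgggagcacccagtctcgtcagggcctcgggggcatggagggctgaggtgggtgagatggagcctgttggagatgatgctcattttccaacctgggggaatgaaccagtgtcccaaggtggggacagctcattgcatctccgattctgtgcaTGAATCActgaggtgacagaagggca
The only capitals in the Cd79a stretch mark an E-box, a short site named here after E2A, which can bind it. Those in the Pou2af1 stretch mark a match to the AP-1 word TGANTCA, in which any middle base was allowed. The Ebf1 stretch held none of the words searched.

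Of the 55 windows, 52 were not at a member's start. Of these, 12 lay within 1 kb of a start of another protein-coding gene and 40 lay away from every coding start. For 27 of the 52, no protein-coding start was nearer than the member's own. These 27 lay in introns (16 windows), in exons (2), upstream of the gene (5) and beyond its end (4). With the 3 promoter windows, 30 windows were nearest a member and 25 nearest a neighbour. All 8 members had at least 1 window nearest them, beside 63% of protein-coding genes. The median member had 3 such windows, and the median protein-coding gene 1. These counts were not scaled by gene length, which ran from 3.42 kb at Cd79b to 391 kb at Ebf1, and longer genes have more room for windows.

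**Figure D1:**
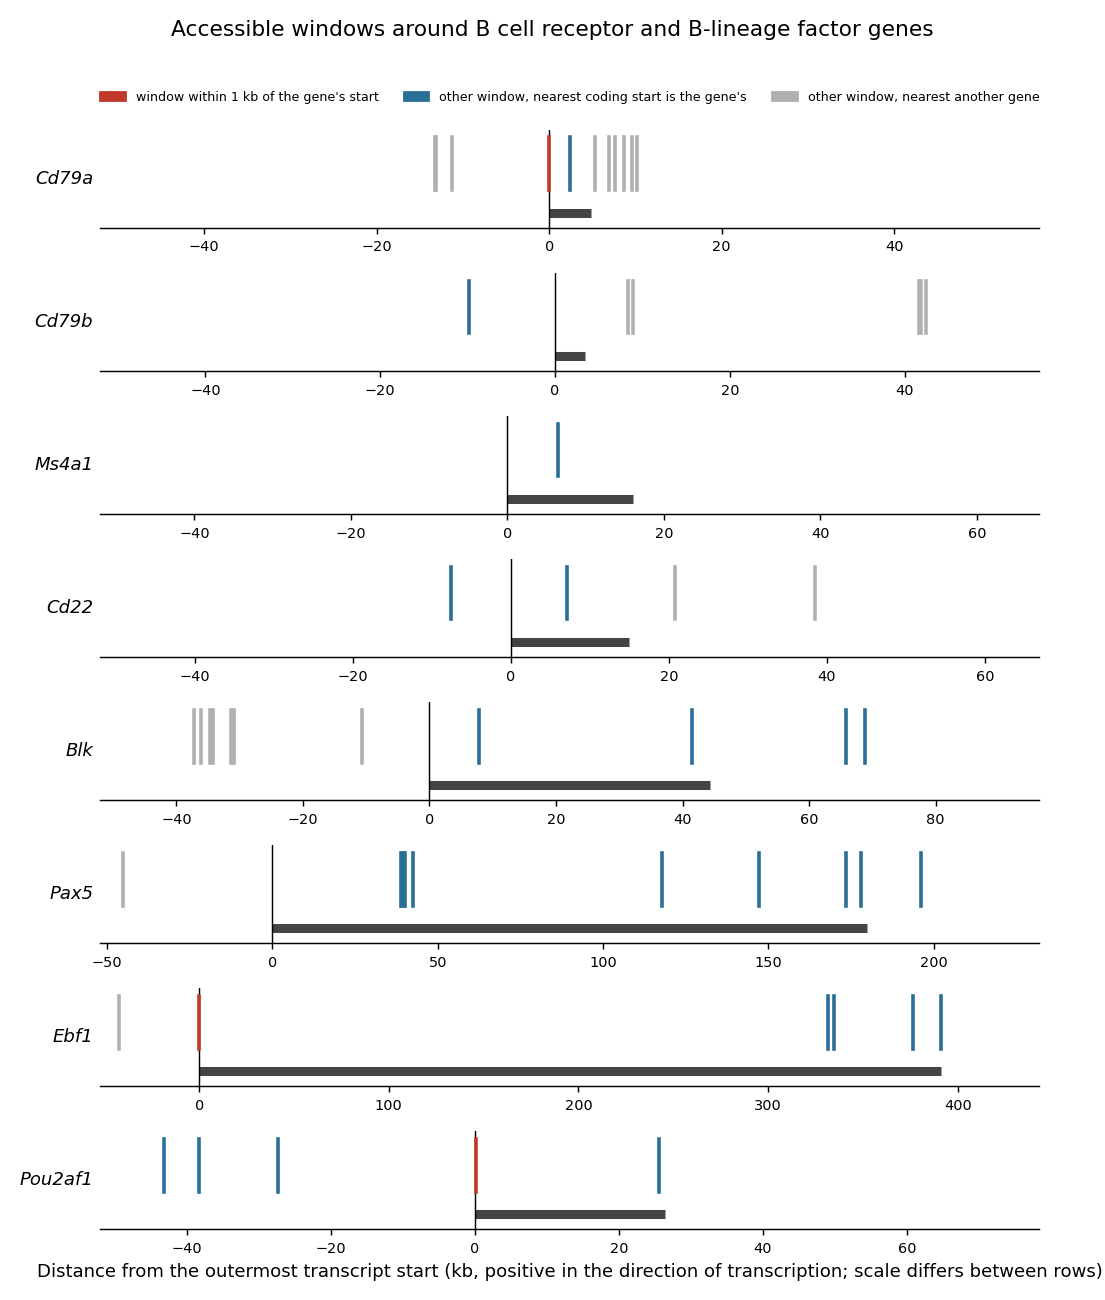
Position of each of the 55 windows (vertical marks) along the 8 loci, in kb from the outermost transcript start, with the gene body as a dark bar. Red marks are the 3 promoter windows, blue marks the 27 other windows nearest the member and grey marks the 25 nearest another gene; the windows of Cd79a and Blk are mostly grey, and those of Pax5, Ebf1 and Pou2af1 mostly blue.

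A stretch of 200 bases is shown for 7 members from their other window with the most kinds of B-lineage word, the nearer to the start where windows tied, to show examples of how the words lie in a window. Stretches follow the strand of the member, and the Pou2af1 window chosen in this way lay in a UTR and is not printed.
Cd79a locus, in Arhgef1 intron 1, chr7:25692461-25692660, plus strand: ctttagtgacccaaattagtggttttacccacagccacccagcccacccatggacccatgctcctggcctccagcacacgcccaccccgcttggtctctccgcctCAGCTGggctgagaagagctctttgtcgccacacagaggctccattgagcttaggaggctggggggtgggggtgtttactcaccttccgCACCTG
Cd79b locus, intergenic, chr11:106167109-106167308, minus strand: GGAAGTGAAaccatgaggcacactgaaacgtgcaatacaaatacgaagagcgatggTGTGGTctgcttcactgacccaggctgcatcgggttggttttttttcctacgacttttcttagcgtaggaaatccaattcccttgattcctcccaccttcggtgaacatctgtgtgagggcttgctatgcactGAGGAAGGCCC
Ms4a1 intron 1, chr19:11334110-11334309, minus strand: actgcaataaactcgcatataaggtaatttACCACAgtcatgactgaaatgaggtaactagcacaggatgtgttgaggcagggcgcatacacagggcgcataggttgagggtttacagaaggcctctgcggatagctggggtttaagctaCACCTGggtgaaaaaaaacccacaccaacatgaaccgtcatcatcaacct
Cd22 coding exon 7, chr7:31658349-31658548, minus strand: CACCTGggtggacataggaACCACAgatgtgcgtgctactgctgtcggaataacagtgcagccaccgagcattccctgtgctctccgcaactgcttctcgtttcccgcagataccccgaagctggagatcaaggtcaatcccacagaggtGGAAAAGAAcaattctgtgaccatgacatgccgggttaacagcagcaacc
Blk locus, in Fam167a intron 2, chr14:64070112-64070311, minus strand: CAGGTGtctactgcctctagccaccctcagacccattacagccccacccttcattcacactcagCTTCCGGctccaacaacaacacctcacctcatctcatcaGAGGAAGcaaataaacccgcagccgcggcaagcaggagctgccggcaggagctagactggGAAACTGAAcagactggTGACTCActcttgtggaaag
Pax5 intron 5, chr4:44685366-44685565, minus strand: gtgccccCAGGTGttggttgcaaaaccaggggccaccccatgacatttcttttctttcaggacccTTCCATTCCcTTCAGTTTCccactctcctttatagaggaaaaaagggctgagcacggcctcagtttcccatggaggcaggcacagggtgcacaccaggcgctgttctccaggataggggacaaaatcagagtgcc
Ebf1 intron 10, chr11:44762024-44762223, plus strand: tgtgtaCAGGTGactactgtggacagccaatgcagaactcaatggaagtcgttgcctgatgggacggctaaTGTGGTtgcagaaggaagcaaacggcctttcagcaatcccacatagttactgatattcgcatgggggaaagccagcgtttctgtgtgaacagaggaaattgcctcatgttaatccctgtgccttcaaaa
The Cd22 stretch is partly coding sequence. The stretches of Cd79a, Cd79b and Blk had Arhgef1, Gh and Fam167a, respectively, as their nearest coding gene.

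The genes of the receptor dimer differed in their windows. The Cd79a locus held 11 windows, of which only the promoter window and a window in intron 3, 2.36 kb downstream, were nearest Cd79a. The intron 3 window held the EBF word and the symmetric E-box. Of the rest, 3 lay at the start of Rps19, a ribosomal protein gene, and 6 were nearest Arhgef1, a guanine nucleotide exchange factor gene that follows Cd79a, from 5.35 to 10.1 kb downstream of the Cd79a start. Of these 9 windows, 8 lay within 1 kb of a start of Rps19 or Arhgef1. The Cd79b locus held 6 windows, none of them in the gene. The only window nearest Cd79b lay 9.8 kb upstream in coding exon 19 of Scn4a, a muscle sodium channel gene. A pair of windows 8.14 and 8.64 kb downstream were nearest Gh, the growth hormone gene, and 3 lay at the start of Smarcd2, a chromatin remodelling subunit gene, 41.4 to 42.2 kb away. The windows near Gh lay beyond the end of Cd79b. The farther of them held 4 kinds of B-lineage word, those of PU.1, RUNX, NF-kB and the ETS-IRF composite. Both windows near Gh also held the AP-1 word, which was chosen for an epithelial factor.

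Of the genes of the other surface proteins, Ms4a1 had 1 window in its whole locus, in intron 1 and 6.43 kb from the start, a stretch where another gene model overlaps it. A lower number of locus windows than at Ms4a1 was found at 16.9% of protein-coding genes, and it was the only member below the median of 4. Cd22 had 4 windows, of which 1 lay in coding exon 7, 5.74 kb from the nearest start, and 1 lay 7.57 kb upstream. Both held the RUNX word, found in 32.1% of all windows. The remaining Cd22 windows, 19.5 and 37.2 kb downstream, were nearest Ffar1 and Ffar3, genes of free fatty acid receptors, and also held the RUNX word.

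Blk had 11 windows, of which 4 were nearest it and 7 nearest Fam167a, its upstream neighbour. Of the 4, 1 lay in intron 1 (7.75 kb from the start), 1 in intron 11 of a transcript with 13 exons (41.4 kb), and 2 beyond the gene end (65.8 and 68.8 kb). The ETS-IRF composite was found in 3 of them, beside 14% of all windows. Upstream, 6 windows stood in a run of 6.88 kb in introns 2 and 3 of Fam167a, 30.9 to 37.3 kb from the Blk start. The run held the PU.1 word in 2 windows (20.8% of all windows) and the symmetric E-box in 4 (28.1%). The Blk stretch above came from a window in this run that held 6 kinds of B-lineage word, the most of any of the 55. The median was 2 in the loci and 2 in the whole list. The window of this stretch also held the AP-1 word, which was chosen for an epithelial factor.

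Pax5 had 10 windows nearest it, the most of any member, and 9 of its 11 windows inside the gene. Fewer windows nearest their own start were found for 97.4% of protein-coding genes. The gene is long, at 180 kb, and its density of windows other than at promoters was 3.92 per 100 kb of locus, which exceeded that of 65.9% of genes. Of the 9, 5 formed a run of 4.15 kb in intron 5 of a transcript with 10 exons, 38.9 to 42.5 kb from the outermost start and 11.2 to 14.9 kb from the nearest of 7 annotated starts. Intron 5 of Pax5 is known to hold an enhancer used in B cells, and whether these windows match it was not tested. Every window of the run held the E2A E-box, found in 35.3% of all windows. The run was picked out after the data were seen, and its 5 windows overlapped in part, making 3 separate pieces. The symmetric E-box (28.1% of all windows) was found in 2 of the 5 and the PU.1 word (20.8%) in 0. The run also overlapped intron 1 of Gm12462, another gene model. The remaining windows in the gene lay in intron 7, intron 8 (2 windows) and intron 9. A window lay beyond the gene end, 168 kb from the nearest start, and the only Pax5 window nearest another gene lay at the start of Zcchc7, a zinc finger gene, 45.2 kb upstream.

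Ebf1, the longest member at 391 kb, had 6 windows, and 5 of them were nearest it. Beside the promoter window at its outermost start there were 2 in intron 10 of a transcript with 16 exons (331 and 335 kb from the outermost start), 1 in intron 14 (376 kb) and 1 just past the gene end (391 kb). No window was listed in the 331 kb between the promoter window and the first of intron 10. The window 42.2 kb upstream was nearest Rnf145, a ring finger gene. The OCT word, the octamer bound by the factors that OCA-B assists, was found in 2 of the 55 windows, the Ebf1 window past the gene end and the one nearest Rnf145. Pou2af1 had 5 windows, all nearest it. Beside the promoter window, 3 lay in intergenic sequence 27.4, 38.3 and 43.2 kb upstream and 1 in UTR exon 5, 25.6 kb downstream of the start. Windows nearest Pou2af1 thus lay on both sides of its start, and those nearest Pax5 all lay downstream of its outermost start.

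Density of windows other than at promoters, per 100 kb of locus, was 9.54 at Cd79a, 7.62 at Blk, 5.8 at Cd79b, 3.92 at Pax5, 3.48 at Cd22, 3.16 at Pou2af1, 1.02 at Ebf1 and 0.862 at Ms4a1. The median of all protein-coding genes was 2.47, with quartiles of 0.793 and 5.11, so 3 members lay above the upper quartile and none below the lower. With 1 list, neighbours in this order have no spread by which to tell them apart. The members with the highest densities, Cd79a, Blk and Cd79b, were those with most of their windows nearest a neighbour. Windows with at least 4 others within 5 kb made up 15 of the 55 (27.3%), beside 8.78% of the list. They stood in the Cd79a locus (6, all nearest Arhgef1), the Pax5 locus (5, all nearest Pax5) and the Blk locus (4, all nearest Fam167a). Only those of Pax5 were thus nearest a member.

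**Figure D2:**
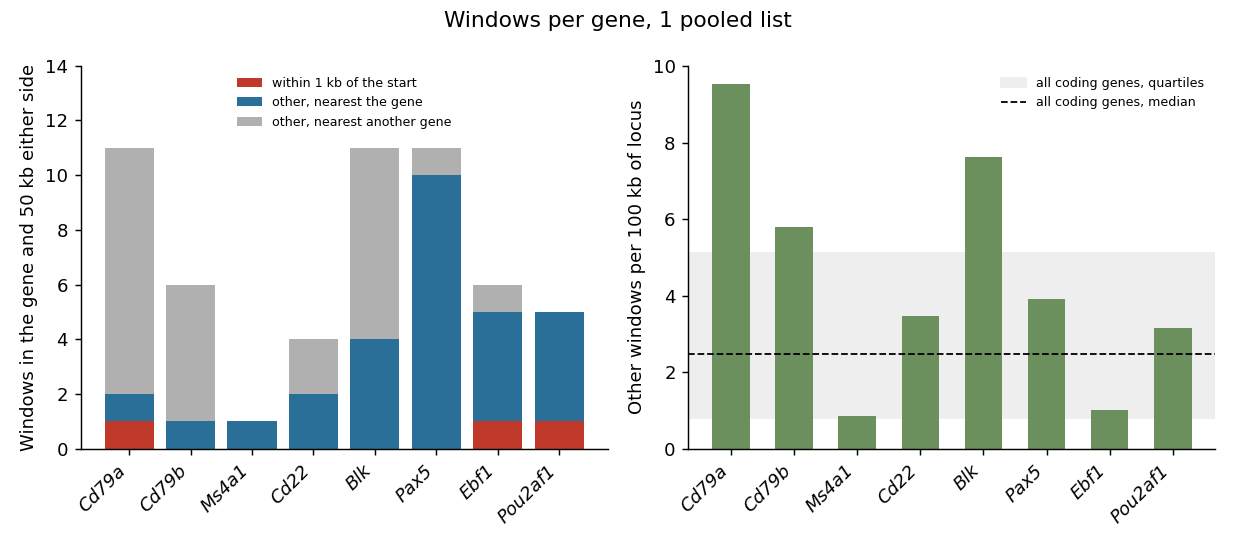
Windows per member by kind (left, stacked bars of counts) and windows other than at promoters per 100 kb of locus (right, bars), with the median (dashed line, 2.47) and quartiles (grey band) of 22350 protein-coding genes. Pax5 has the most windows nearest its own start (10) and Cd79a the highest density (9.54), and Ms4a1 and Ebf1 lie under the median.

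Genes were also placed in deciles by the CpG content of their starts. The observed to expected CpG ratio was taken in the 1 kb centred on the outermost start of each gene. It was 0.522 at Pax5 and 0.492 at Ebf1, both in the fifth decile of all genes, where 43.7% of genes had a promoter window. It was 0.331 at Cd79a and 0.311 at Pou2af1, in the fourth decile (24.7%), and 0.258 at Cd22, in the third decile (17.7%). The lowest ratios were those of Cd79b (0.177), Ms4a1 (0.137) and Blk (0.136), in the second decile, where 11.1% of genes had a promoter window. The members with a promoter window thus had ratios from 0.311 to 0.492 and those without from 0.136 to 0.522, and the part of CpG content in which members were listed was not tested. The windows nearest a member but not at its start had a median GC content of 49.8% (42.8% to 57.8%) and a median CpG ratio of 0.24. The 32697 windows of the list away from every coding start had medians of 48.8% and 0.214.

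Calls are numbered in order along the list, up to 118153, and 44863 of them (38%) were kept in it. Between the outermost windows of each locus, 51 of 104 numbered calls were kept at the members (49%, 95% exact binomial interval 39.1% to 59%, counting error only). The outermost calls are kept by construction, which raises this share, so it cannot be read as higher than the 38% of the list. The share was 81.8% at Cd79a (9 of 11 calls), 55.6% at Blk (10 of 18), 40.7% at Pax5 (11 of 27) and 35.3% at Ebf1 (6 of 17), with intervals that overlap. A count out to the nearest windows outside the locus takes in calls beyond it. It adds only missing calls, so the share can only fall, by construction. Kept calls were then 9 of 20 at Cd79a, 10 of 22 at Blk, 11 of 37 at Pax5 and 6 of 20 at Ebf1. All 5 members with no promoter window had at least 1 missing call in the stretch around the outermost start, as did 91.7% of all genes with no promoter window. The stretch runs between the nearest windows on either side, and stretches around a gene's other starts were not counted. There were 5 such calls in 17.7 kb at Cd79b (2.83 per 10 kb), 3 in 17.9 kb at Blk (1.68), 1 in 14.1 kb at Cd22 (0.708), 5 in 83.5 kb at Pax5 (0.599) and 1 in 78.7 kb at Ms4a1 (0.127). Over all genes with no promoter window, the medians were 4 missing calls, a stretch of 147 kb and 0.206 calls per 10 kb, each taken on its own. The positions of missing calls are not in the list, so whether any of them lay at these starts is unknown. An absent promoter window means only that none was kept, whether no call was made there or a call ranked too low.

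Consensus words of factors that act in B cells or in epithelium were searched on both strands, and a match is a run of letters, not a bound site. Each word is named after a factor or family and was called B-lineage or epithelial by that name. Other factors and other cell types may use the same letters, which was not tested. The word of E2A, the E-box CAGGTG, was the most frequent, in 25 of 55 windows (45.5%, interval 32% to 59.4%) and in 15 of the 30 nearest a member (50%), beside 35.3% of all windows. For RUNX factors, TGTGGT was found in 34.5% of the 55 and in 43.3% of the 30, beside 32.1% of all windows. The ETS-IRF composite GGAANNGAA, the kind of site on which PU.1 joins IRF factors, was in 20% of the 55, in 26.7% of the 30 (interval 12.3% to 45.9%) and in 14% of all windows. The PU.1 word GAGGAAG went the other way, being in 14.5% of the 55 and in 1 of the 30 (3.33%, interval 0.0844% to 17.2%), beside 20.8% of all windows. That 1 window lay in intron 8 of Pax5. The remaining windows of the loci with the PU.1 word were nearest Rps19, Arhgef1, Gh or Fam167a. Shares were also taken in the 27 windows nearest a member but not at its start, beside the 32697 windows away from every coding start. They were 51.9% and 36.3% for E2A, 44.4% and 37.4% for RUNX, 29.6% and 14.8% for the ETS-IRF composite, and 3.7% and 21% for PU.1. Of the 10 B-lineage words, 6 had the higher share in the 27.

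The word of EBF itself, TCCCNNGGG, was in 5 windows (9.09%), beside 10.6% of all windows, and 3 of them were nearest a member, in intron 3 of Cd79a, intron 11 of Blk and intron 8 of Pax5. The Cd79a promoter, a textbook target of EBF1, did not hold these letters, and a strict word misses sites that depart from it. The octamer ATGCAAAT was in 3.64% (2.1% of all windows). The IRF word GAAANNGAA was in 12.7% (13%), the symmetric E-box CAGCTG in 21.8% (28.1%) and the ETS word CCGGAAG in 7.27% (8.56%). The NF-kB word GGGNNTTCC was in 6 windows (10.9%, beside 9.17%), none of them nearest a member. Words can overlap one another, as those of PU.1 and NF-kB do in the Cd79b stretch, so these shares are not independent. Of the words chosen for epithelial factors, TGANTCA of AP-1 was in 32.7% (24.8% of all windows) and ACATTCC of TEAD in 7.27% (7.78%). Away from coding starts, AP-1 was in 33.3% of the 27 windows nearest a member, beside 31.7% of such windows in the list. For the ETS word these shares were 3.7% and 3.81%. The GRHL word AACCNGTT was in 0 of 55 windows, which allows a share of up to 5.45% when a limit of 3 counts is set on a count of 0 (the exact interval drawn in the plot of word shares ends at 6.49%), beside 3.44% of all windows. Over the 55 windows, the intervals of all 13 words took in the share of the whole list. Over the 30 nearest a member, 1 of 13 did not, that of PU.1. These intervals treat windows as independent, although some overlap, and were not adjusted for the number of words.

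**Figure D3:**
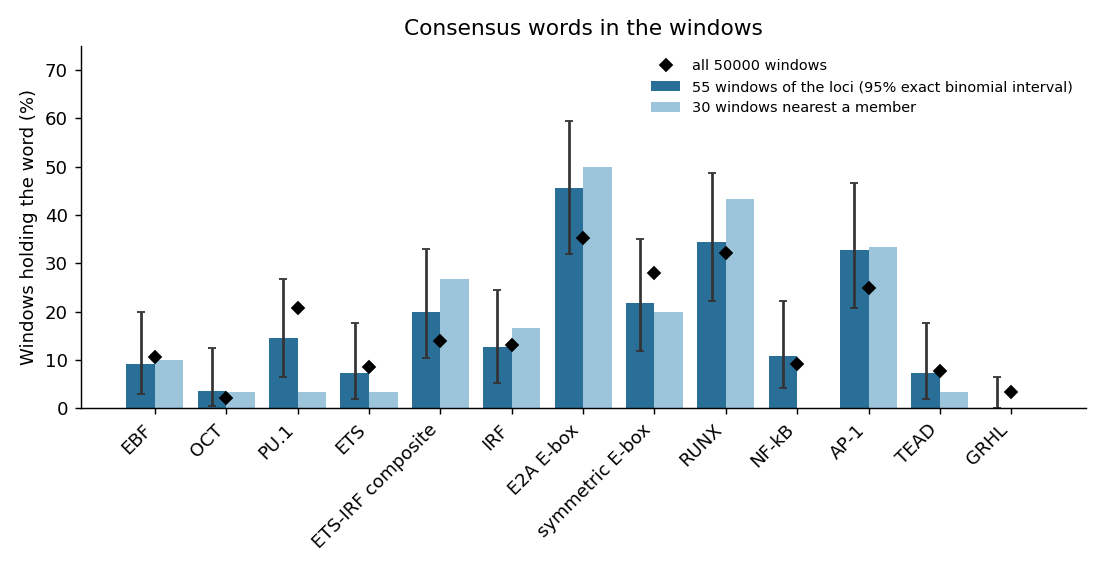
Share of windows holding each of 13 consensus words (y axis, %), in the 55 windows of the loci (dark bars with 95% exact binomial intervals), the 30 nearest a member (light bars) and all 50000 windows (diamonds). Diamonds lie inside every interval of the dark bars, and the light bar of PU.1 (3.33%) lies well under its diamond (20.8%).

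Wider lists of B cell genes were counted in the same way, with promoter windows set beside the 48.1% of all genes. Counts of windows nearest a gene were not scaled by gene length in these lists or in the marker lists below. Shares with a promoter window were not matched for the CpG content of the starts. Genes of B cell receptor signalling had a promoter window at 13 of 19 (68.4%) and a median of 5 windows nearest them, the most at Plcg2, a phospholipase (20), Fyn, a Src family kinase (14), and Prkcb, a protein kinase C gene (13). Genes that restrain the receptor, the role of Cd22, had one at 3 of 8 (37.5%), with a median of 2 windows, the most at Inpp5d, the lipid phosphatase SHIP (16). Transcription factors of the B lineage, the role of Ebf1 and Pax5, had one at 17 of 21 (81%), with a median of 7 windows, the most at Runx1 (38), Bach2 (32) and Tcf4 (18). Many of these factors also act in T cells or in epithelium. Genes of B cell progenitors and immunoglobulin had one at 3 of 11 (27.3%) and a median of 0 windows. Vpreb1, counted among the 3, had 2 promoter windows but 0 windows nearest it, so both were nearer another protein-coding start. Of these 11, 9 are annotated as protein-coding, and the others, Ighm and Igkc, could have no window counted as nearest them because windows were assigned to protein-coding starts alone. Relatives of the members by sequence (other Src kinases, EBF, PAX, MS4A and Siglec genes) had one at 5 of 17 (29.4%), beside 3 of 8 of the members (37.5%), with a median of 1 window beside 3, and the most were at Src (15) and Pax8 (6).

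Marker lists of the other cells that the mixture could hold gave promoter windows at 10 of 10 epithelial genes (median of 6.5 windows nearest the gene), 6 of 10 MHC class II genes (2), 5 of 11 genes of the T cell receptor complex (2), 2 of 9 NK genes (0) and 2 of 12 myeloid genes (1). The members, at 3 of 8 with a median of 3, lay between the epithelial genes and the NK and myeloid genes on both counts. Of MHC class II, which B cells share with other antigen-presenting cells, Cd74 had the most windows (8). The part of 4T1 cells or of other spleen cells in the windows of the members was not tested.

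**Figure D4:**
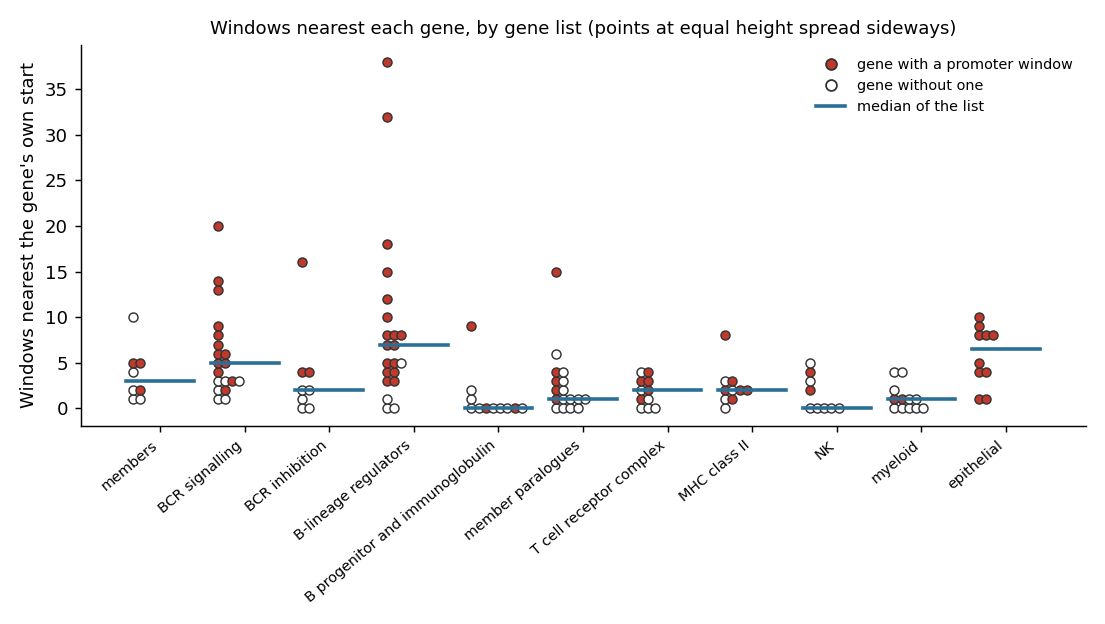
Windows nearest the start of each gene (y axis, counts; points) by gene list, with filled points for genes with a promoter window and lines for the list medians. The 8 members range from 1 to 10 (median 3), and B-lineage regulators from 0 to 38 (median 7).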

How the data were processed

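Pi-ATAC was performed on 192 sorted cells. Per the published methods, the authors mapped reads to mm9 with Bowtie2 2.1.0, removed duplicates with Picard 1.79, called summits with MACS2 (version not given in the sources used here) on aggregated cells and kept the windows of 500 bp with the lowest q-values. The deposited unit used here was the position of each window, with a call name; no score, count or fold is given, so ranks and depth were not analysed here.

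Windows overlapping by at least 1 bp a member's GENCODE vM1 gene body or 50 kb either side were counted, and a promoter window lay within 1 kb of any transcript start. Windows were assigned to the nearest protein-coding start on 19 autosomes and chromosome X. Protein-coding genes counted in the same way are the background, and no test was run. Intervals are 95% Clopper-Pearson and cover counting error only. Words were searched in the NCBIM37 (mm9) genome on both strands. Counting was tried on simulated windows. Python 3.11.15, numpy 2.4.6, scipy 1.17.1 and matplotlib 3.10.9 were used.

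The members, gene lists and words were chosen with earlier results of these data known. All members are named; of each other list, up to 3 genes with the most windows nearest their start (ties by name); and neighbours where a window was nearest them. For 1 gene chosen by this rule, values are not reported here. Syk, Pirb, Ighd, Iglc1 and Siglecf had no match in the annotation. Deciles of CpG ratio, windows with 4 others within 5 kb, runs of windows and missing calls per 10 kb were chosen after the data were seen. Printed stretches were limited to 30 bases of UTR. Alternatives covered the flank, the distance from starts, overlap, merging, multi-summit calls and neighbours' starts.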

Additional observations from a re-analysis of the deposited data

How the results depend on the processing

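The number of windows in the loci was 55, and 33 with a flank of 10 kb. Windows other than at promoters numbered 52, 30 with a flank of 10 kb and 27 where only those nearest the member were counted. Calls with several summits are the only ones for which the list gives any sign of breadth. They gave 8 windows, 14.5% of the 55, beside 18.2% of the whole list. All 8 were other than at promoters and none was nearest a member, and 0 members had a promoter window from such calls. The remaining alternatives, with a flank of 100 kb, window centres, merged windows, other distances from the start, the outermost start alone or neighbours' starts left out, changed each count by less than 1.5 times. The count of members with a promoter window was 3 under all of these that apply to it. Nearest to the limits, a Pax5 window 44905 bp from the gene was taken and a window 50025 bp from Blk, nearest Tdh, was not. For the limit of 1 kb, the promoter window of Pou2af1 overlapped the start itself, and the nearest window left out, at Cd79a, lay 2114 bp from the start. Word shares stayed within their interval for 8 of 13 words when 100 bp on either side of the window centre were searched (a shorter stretch, which lowers shares by construction) and for 11 of 13 in windows nearest a member, all but PU.1 and NF-kB. No paired analysis was possible because the list holds 1 pooled sample and no result comes from a test. Depth limits all counts, since windows ranked below those kept are not in the list.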
